A study of Mus musculus with 3 samples.

Results

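The clustered histone genes were taken as the protein-coding genes of the mouse genome annotation (GENCODE M1, build mm9) whose symbols begin with Hist1h, Hist2h, Hist3h or Hist4h. The rule found 67 of 22367 protein-coding genes, and used no measured value. By class they are 6 genes for the linker histone H1 and, for the core histones, 19 for H2A, 18 for H2B, 11 for H3 and 13 for H4. The Hist1 genes number 55 and lie on chromosome 13, the 9 Hist2 genes lie on chromosome 3, the 2 Hist3 genes on chromosome 11, and Hist4h4 is alone on chromosome 6.

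Core histones form the protein spool of the nucleosome, and H1 binds the DNA that enters and leaves it. The clustered genes are largely of the replication-dependent kind, which is known for short messages without introns that end in a stem-loop rather than a poly(A) tail. Expression of this kind is tied to DNA synthesis. Many copies encode the same or nearly the same protein. Megakaryocytes (MK), the cells that release platelets, copy their genome repeatedly without dividing, so the genes that package new DNA are of interest in these cells. FLI1, an ETS-family transcription factor, and RUNX1, which binds DNA with the partner CBFB, are both needed for MK maturation.

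The data are 1 ChIP-seq library for FLI1, 1 for RUNX1 and 1 of input, DNA of the same cells sequenced with no antibody step. All came from wild-type CD1 mouse fetal liver of embryonic day 15 by the labels, and from mature MK after 5 days of culture, freed of other blood lineages with antibodies and passed over albumin gradients. By the labels each library was made from a pool of at least 3 replicates, so none can be compared, no test was made, and every interval covers counting error only. The methods and the labels differ on the embryonic day, on the library kit and on whether the input was digested or sheared. Every fold below divides by this input, and the effect of its preparation on the folds was not tested. The numbers of reads used were 62946422 for FLI1, 3973856 for RUNX1 and 21745220 for input, with reads of 50, 50 and 34 bases.

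Reads were counted within 500 bp of each gene start, the 5′ end of the gene record. Scaled reads are reads per 10000000 reads of the library. A fold is scaled FLI1 reads plus 1, divided by scaled input reads plus 1, and was formed where the input held at least 1 read. For reference, 11 of 15 MK marker genes reached a FLI1 fold of 2, beside 40.5% of all protein-coding starts with input reads, among them Itga2b, the gene of an MK integrin, at 10.9 and Nfe2 at 10.3. The same held for 0 of 6 erythroid, 1 of 7 granulocyte and macrophage (Mpo, 5.05) and 0 of 6 lymphoid markers. These values show where FLI1 reads lay and do not test which cells were present.

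The DNA just upstream of the histone starts is shown for 1 gene of each class, the one with the highest FLI1 fold among those with at least 5 input reads, to show the DNA next to which these reads were counted and the promoter sequences described further on. Each line gives the 150 bases before the start in mm9, on the strand of the gene, outside the annotated gene. Capitals mark CCAAT and TATAA, the octamer ATTTGCAT, the H1 box AAACACA and the ETS sequence CGGAAG, each read on either strand.
Hist1h1c: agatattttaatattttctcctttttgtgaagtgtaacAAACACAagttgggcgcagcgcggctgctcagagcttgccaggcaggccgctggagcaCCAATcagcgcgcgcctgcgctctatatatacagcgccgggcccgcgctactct
Hist2h2ab: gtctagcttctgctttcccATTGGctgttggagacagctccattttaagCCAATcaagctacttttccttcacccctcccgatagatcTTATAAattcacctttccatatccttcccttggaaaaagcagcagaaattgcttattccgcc
Hist1h2bg: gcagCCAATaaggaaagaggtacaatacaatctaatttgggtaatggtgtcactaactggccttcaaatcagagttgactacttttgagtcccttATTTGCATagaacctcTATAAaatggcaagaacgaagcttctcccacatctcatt
Hist1h3e: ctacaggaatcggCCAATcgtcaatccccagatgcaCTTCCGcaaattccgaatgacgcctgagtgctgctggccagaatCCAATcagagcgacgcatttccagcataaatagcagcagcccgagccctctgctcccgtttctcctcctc
Hist1h4i: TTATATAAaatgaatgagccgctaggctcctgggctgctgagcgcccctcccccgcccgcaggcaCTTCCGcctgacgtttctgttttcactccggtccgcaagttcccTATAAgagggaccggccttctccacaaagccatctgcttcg
These stretches lie at chr13:23830526-23830675 (plus strand) for Hist1h1c, chr3:96023689-96023838 (plus) for Hist2h2ab, chr13:23663115-23663264 (plus) for Hist1h2bg, chr13:23654239-23654388 (minus) for Hist1h3e and chr13:22133222-22133371 (minus) for Hist1h4i.

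Most clustered histone genes carried more FLI1 reads than input at their starts. A FLI1 fold of at least 2 was found at 40 of the 61 genes with input reads (65.6%), beside 40.5% of all protein-coding starts with input reads (8697 of 21487). The median fold of the histone genes was 2.69 and the values ran from 0.44 to 7.68, compared with a median of 1.54 and a highest value of 45.6 over all starts. On the log2 scale of the same fold the medians were 1.43 and 0.63. The histone genes were mostly of intermediate rank, since 4 of the 61 lay in the highest 10% of all starts, 8 lay below the median of all starts, and their median was at percentile 68.9.

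A histone start with input reads held a median of 58 FLI1 and 6 input reads, compared with 38 FLI1 and 9 input reads over all such starts. The means over all 67 starts were 62.4 FLI1 and 6.94 input reads, compared with 68.9 and 9.21 over all protein-coding genes. In these raw counts FLI1 was higher by the median and lower by the mean, and the input was lower by both. Unique positions, described further on, are fewer at the histone starts. Per 1000 of them, FLI1 held 53.2 reads upstream and 39.0 downstream, compared with 41.0 and 33.3 over all genes. The input held 5.05 and 6.49, compared with 5.22 and 4.92. Added over the 67 starts, FLI1 gave 4182 and the input 465 reads, a depth-scaled ratio of 3.11 (95% interval 2.82 to 3.43), beside 2.58 (2.57 to 2.60) over all starts. Windows of neighbouring genes overlap, and 29 genes lie in regions that hold more than 1 start. With each read counted once, over 52 separate regions, 3640 FLI1 and 404 input reads gave a ratio of 3.11 (2.81 to 3.46). Neither the folds nor these ratios allow for the shorter input reads, which can reach fewer unique positions. Downstream of the histone starts 34-base words were unique at 47.7% and 50-base words at 52.9% of positions, compared with 90.1% and 92.0% over all genes. Division by unique positions lowered the histone ratio from 3.76 to 3.64 upstream and from 2.30 to 2.08 downstream. Over all genes it went from 2.77 to 2.71 and from 2.39 to 2.33.

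The ratio of single genes was limited by the input, which held a median of 6 reads per start and from 1 to 3 reads at 5 genes. The interval of the ratio lay above 1 at 43 of the 61 genes and below 1 at 1 gene. The same counts over all starts are not given here, so these have no background. Near the threshold, 14 genes had a fold from 1.5 to 2 and 7 had one from 2 to 2.5.

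**Figure D1:**
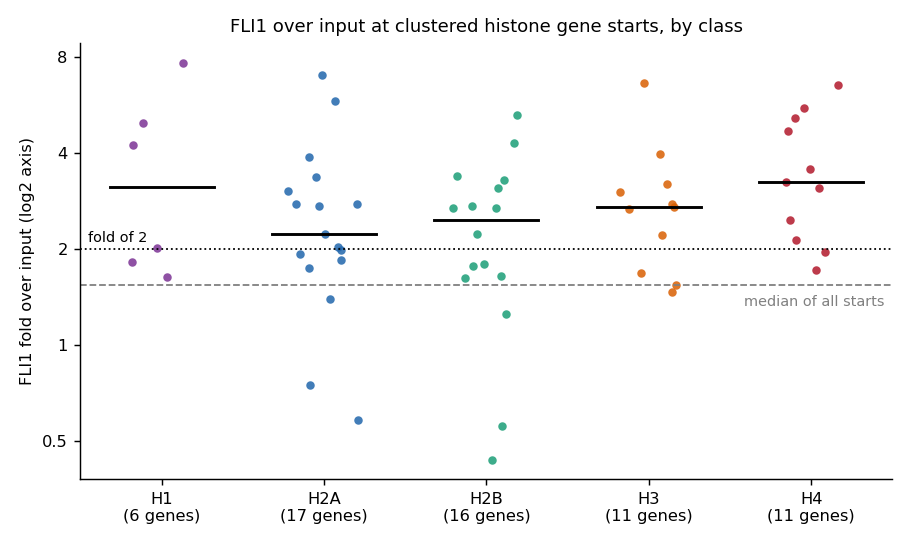
FLI1 fold over input (log2 axis) at the starts of 61 clustered histone genes, 1 point per gene, by histone class, with the class median as a black bar. The class medians lie between 2.23 (H2A) and 3.24 (H4), above the dashed median of all starts (1.54), while 4 H2A and H2B genes lie below 1.

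The linker histone genes, which encode the H1 proteins, spanned much of this range. Hist1h1c held 94 FLI1, 5 RUNX1 and 6 input reads, a fold of 4.24 and a ratio of 5.41 (2.40 to 15.1). Hist1h1a had 59 FLI1 and 9 input reads and a fold of 2.02, and Hist1h1b had 58 and 10 reads and a fold of 1.82. Within 250 bp the fold of Hist1h1c was 6.89 and that of Hist1h1a 4.38, and within 1000 bp Hist1h1a was below 2, at 1.62. Hist1h1t, known as a testis-specific H1, was the lowest of its class, with 37 FLI1 and 7 input reads and a fold of 1.63. Hist1h1e showed the highest fold of all clustered histone genes, 7.68, from 131 FLI1 reads. Its input count was only 4, so the interval of its ratio is wide (11.3, 4.31 to 42.1), and it was named after its values were seen.

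Among the H2A genes, which encode one of the core histones, Hist2h2ab stood highest with 140 FLI1, 3 RUNX1 and 5 input reads and a fold of 7.04 (ratio 9.67, 4.05 to 30.3), which was 3.94 within 1000 bp and 4.40 with reads taken at their 5′ ends. Hist3h2a followed among genes with at least 5 input reads, with 83 FLI1 and 7 input reads and a fold of 3.36. The lowest were Hist1h2al (20 FLI1 and 10 input reads, fold 0.75), which lies apart from the rest of the chromosome 13 cluster, and Hist1h2aa (21 and 14 reads, fold 0.58). In all, 10 of 17 H2A genes with input reads reached a fold of 2.

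The H2B genes, whose product pairs with H2A, gave 9 of 16. Hist1h2bg held 103 FLI1, 4 RUNX1 and 5 input reads (fold 5.26), and Hist2h2bb held 145, 2 and 10 reads (fold 4.29). Within 1000 bp the fold of Hist1h2bg was 3.25. At the other end were Hist1h2ba (15 FLI1 and 11 input reads, fold 0.56), known as the testis-specific H2B, and Hist3h2ba with 23 FLI1, 0 RUNX1 and 21 input reads and a fold of 0.44. Hist3h2ba was the gene whose ratio had an interval below 1 (0.38, 0.20 to 0.72). Hist1h2aa and Hist1h2ba, a divergent pair, are both known as testis variants and share most of their windows.

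The H3 and H4 proteins together form the centre of the nucleosome. A fold of 2 was reached at 8 of 11 H3 and 9 of 11 H4 genes with input reads. Hist1h3e held 106 FLI1, 8 RUNX1 and 10 input reads (fold 3.19) and Hist1h3b held 50, 6 and 5 reads (fold 2.71), whereas Hist1h3d (39 FLI1 and 8 input reads, fold 1.54) and Hist2h3b (58 and 13 reads, fold 1.46) were lowest. The fold of Hist1h3b was 4.49 within 250 bp and 1.76 within 1000 bp, where Hist1h3d was at 2.03. Of the H4 genes, Hist1h4i held 148 FLI1, 3 RUNX1 and 6 input reads (fold 6.52, ratio 8.52, 3.82 to 23.6) and Hist1h4d held 109, 10 and 5 reads (fold 5.55). The fold of Hist1h4i was 11.03 within 250 bp and 3.32 within 1000 bp, and that of Hist1h4d 3.08 within 1000 bp. Hist1h4j (40 FLI1 and 6 input reads, fold 1.96, or 2.10 at a pseudocount of 0.5) and Hist1h4f (99 and 19 reads, fold 1.72) were the lowest, and no H4 gene with input reads lay below 1.

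Summed by class, FLI1 over input was 3.96 (2.85 to 5.64) for H1, 2.87 (2.36 to 3.53) for H2A, 2.44 (2.04 to 2.94) for H2B, 3.10 (2.42 to 4.02) for H3 and 3.90 (3.20 to 4.79) for H4. The intervals of H2B and H4 do not overlap, and those of every other pair of classes do. Counting shared reads once changed only the H2A value, to 2.89 (2.37 to 3.55). Within 250 bp H1 rose to 9.09 (4.86 to 19.2), whose interval is then also apart from those of H2A (2.54 to 4.31) and H2B (2.26 to 3.60).

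The smaller clusters gave values of both kinds. On chromosome 3, next to Hist2h2ab, Hist2h2bb and Hist2h3b, Hist2h4 held 150 FLI1, 3 RUNX1 and 13 input reads (fold 3.56). The divergent genes Hist2h2ac and Hist2h2be held 67 and 66 FLI1 reads and had folds of 1.92 and 1.76, which were 2.87 and 2.52 within 250 bp. Hist2h2aa1 had 59 FLI1 and 6 input reads (fold 2.76), Hist2h2aa2 had 16 and 2 reads (fold 1.84, or 2.14 at a pseudocount of 0.5), and Hist2h3c1 had 57 and 6 reads (fold 2.67). The annotated starts of Hist2h2aa1 and Hist2h3c1 nearly coincide, so their windows hold nearly the same reads. Within 250 bp the folds were 1.02 and 0.77. Downstream of these starts only 4.99% and 3.79% of positions have a unique 50-base word, so where FLI1 lay around them cannot be read from unique reads. Hist4h4 had the most FLI1 reads of all clustered histone genes, 239, together with 24 input reads, the most in the input (fold 3.24).

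The annotated start lay over 400 bp from the first coding base at 3 genes, Hist1h2be (35168 bp), Hist2h3c1 (1197 bp) and Hist1h3f. The window of Hist1h2be (104 FLI1 and 12 input reads, fold 2.69) therefore lies far from its coding sequence. It is counted above among the H2B genes that reached a fold of 2, and its fold is the group median. At Hist1h3f, where the coding sequence begins 433 bp into the gene record, the fullest 100-bp window of FLI1 reads was centred 370 bp after the annotated start and held 30 reads. Centring every histone gene on its first coding base gave 39 genes with a fold of at least 2. No share of all protein-coding genes under this centring is given here, so this count has no background.

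**Figure D2:**
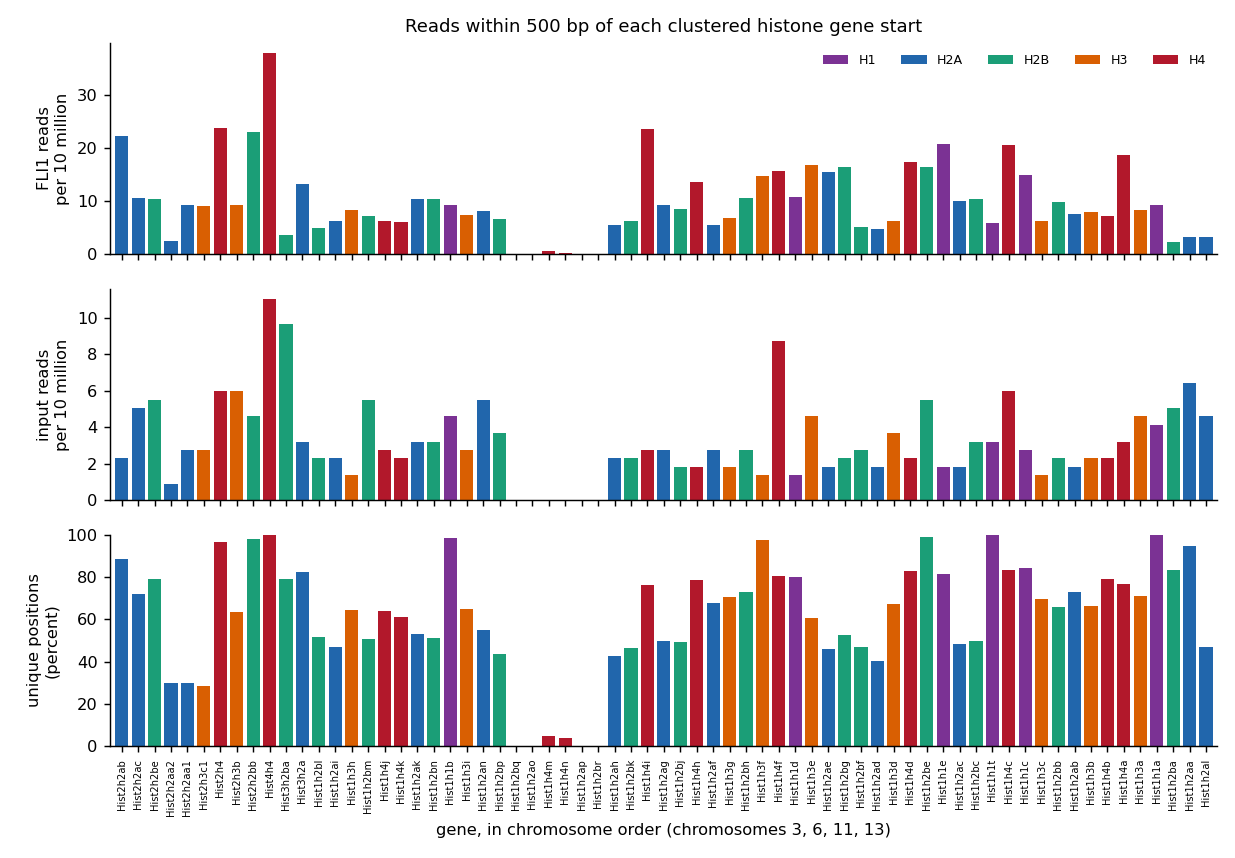
Scaled FLI1 reads (top, per 10000000 reads), scaled input reads (middle, in the same unit) and the percent of positions with a unique 34-base word (bottom) within 500 bp of each of the 67 starts, coloured by class. At 6 neighbouring genes of chromosome 13, Hist1h2bq to Hist1h2br, all input bars are at 0 and at most 4.70% of positions are unique.

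Because only uniquely mapped reads were deposited, copies of a gene that are alike cannot be measured. The input held 0 reads at 6 of the 67 histone starts (8.96%), beside 3.93% of all protein-coding starts. These 6 are Hist1h2bq, Hist1h2ao, Hist1h4m, Hist1h4n, Hist1h2ap and Hist1h2br, which are neighbours on chromosome 13. In the mm9 sequence they form an inverted repeat: the 1001 bases around Hist1h2ao and Hist1h2ap differ at 0 positions, as do those around Hist1h2bq and Hist1h2br, and those around Hist1h4m and Hist1h4n differ at 4. No 34-base word of 4 of these windows is unique in the genome, and the highest unique share of the 6 was 4.70%. The FLI1 library held 4 reads at Hist1h4m, 1 at Hist1h4n and 0 at the others, and RUNX1 held 0 at all 6. A count of 0 allows up to 3 reads, or 1.38 scaled reads for the input. FLI1 at these 6 genes was therefore not measurable, and they enter no share of folds above.

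Hist2h2aa1 and Hist2h2aa2, also inverted copies, differ at 164 of 1001 positions, all upstream of the start and none downstream. Both have unique words at 30.0% of positions. Unique 50-base words make up 59.9% of positions upstream and 4.99% downstream at both, so the counts of these genes come almost wholly from their upstream sides.

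Unique positions were fewer on the coding side of the histone starts. A 34-base word was unique at 76.0% of positions upstream and 47.7% downstream of the histone starts, compared with 91.4% and 90.1% for all genes. Downstream of the start, 38 histone genes had fewer than 50% unique positions, whereas upstream only the 6 inverted copies did. Between genes of a class, the first 300 coding bases were identical at a median of 91.0% (H2A), 96.3% (H2B), 98.3% (H3) and 94.0% (H4) of positions, and of 38.7% for H1, compared base by base without gaps. The upstream DNA was identical at medians between 25.6% and 29.2%. All 3639 FLI1 reads whose 5′ ends lay in the histone windows started at unique 50-base words.

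Summed over the histone genes, more FLI1 reads lay upstream than downstream of the start. They held 2795 FLI1 reads upstream and 1387 downstream, with 257 and 208 input reads. Unique 50-base words were at 78.4% of positions upstream and 52.9% downstream, and per 1000 unique positions the FLI1 reads were 53.2 and 39.0. With each count divided by its unique positions, FLI1 over input was 3.64 (3.20 to 4.15) upstream and 2.08 (1.79 to 2.42) downstream, intervals that do not overlap, compared with 2.71 and 2.33 over all genes. Reads in shared windows count for each gene in these sums, which makes the intervals too narrow. For the 24 H2A and H2B genes in divergent pairs, described further on, the 500 bp upstream also hold the start and part of the partner gene. The same reads can then enter the upstream side of 1 gene and the downstream side of the other. The 2 sides are therefore not separate in the sums of all histone genes. By class, H4 gave 5.21 (3.94 to 7.01) upstream and 2.21 (1.66 to 3.00) downstream, and H2B gave 3.11 (2.43 to 4.04) and 1.42 (1.08 to 1.88). The H1 genes held fewer FLI1 reads upstream than downstream, 187 and 260, or 31.2 and 50.7 per 1000 unique positions, and 14 and 25 input reads, which gave ratios of 4.61 (2.68 to 8.60) and 3.43 (2.27 to 5.40). For H3 the values were close, 2.94 (2.22 to 3.97) and 3.08 (1.87 to 5.41), with a wide interval downstream.

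The input also differed between the sides. Per 1000 unique positions it held 5.05 reads upstream and 6.49 downstream of the histone starts, an upstream to downstream ratio of 0.778 (0.645 to 0.939), whereas before division by unique positions the ratio was 1.24. Over all genes the direction was the other one, with 5.22 input reads upstream and 4.92 downstream per 1000 unique positions. Single 50-bp bins of all genes varied within each side. Scaled input reads per 1000 unique positions were 2.10 in the bin centred 75 bp before the start. They were 2.75 in the bin centred 125 bp after it and 1.96 in that centred 225 bp after it. The part of the input in the FLI1 ratios of the sides was not tested.

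**Figure D3:**
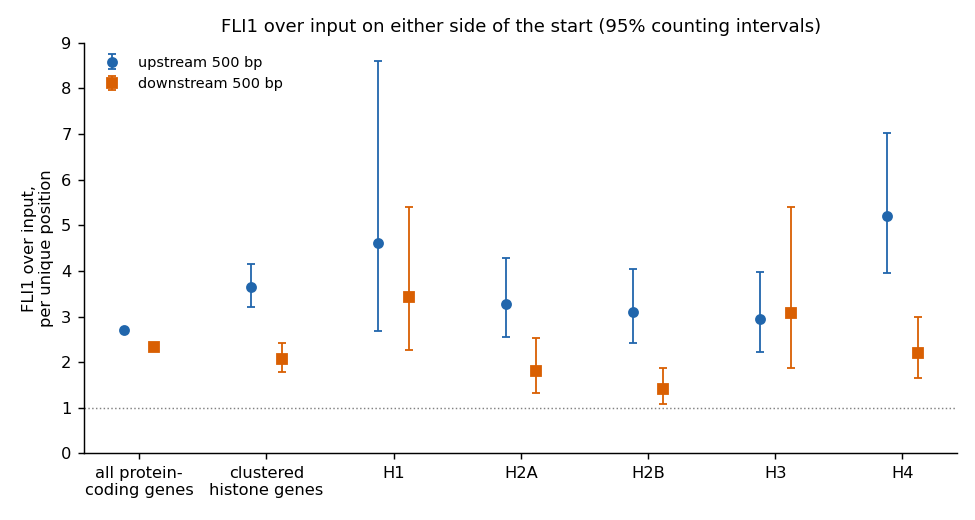
FLI1 over input per unique position (linear axis from 0) in the 500 bp upstream (circles) and downstream (squares) of the start, for all protein-coding genes, the 67 clustered histone genes and each class, with 95% counting intervals. The upstream value is above the downstream one for H1, H2A, H2B and H4, and the intervals are apart for H2B and H4. Those of H2A nearly touch, at 2.54 to 4.29 upstream and 1.32 to 2.53 downstream. Reads in shared windows count for each gene, which makes these intervals too narrow, and at divergent pairs they can enter both sides.

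In bins of 50 bp, FLI1 at the 61 histone genes with input was highest in the bin centred 75 bp before the start, at 13.5 scaled reads per 1000 unique positions. The profile of all genes was highest at 25 bp before the start, at 12.8. The window of 100 bp with most FLI1 reads was centred a median of 90 bp before the start, within the last 250 bp upstream at 46 of the 61 genes, further upstream at 8 and at or after the start at 7. By class its median centre was 130 bp before the start for H2A, 100 bp for H2B, 90 bp for H3 and 70 bp for H4, and 5 bp after the start for the 6 H1 genes. At Hist1h4i this window, centred 70 bp upstream, held 82 of the 148 FLI1 reads, the most at any of these genes. At Hist2h4 it held 64 reads, at Hist4h4 60 and at Hist1h4c 59, so the 4 fullest windows were those of H4 genes, and Hist2h2ab followed with 52. The fullest windows were picked by raw reads, not divided by unique positions, which are fewer after the start. Divergent genes can count the same window on opposite sides. That of Hist2h2ac was centred 10 bp after its start and that of Hist2h2be 250 bp before its own, with starts 241 bp apart. The same counts of windows over all starts are not given here.

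**Figure D4:**
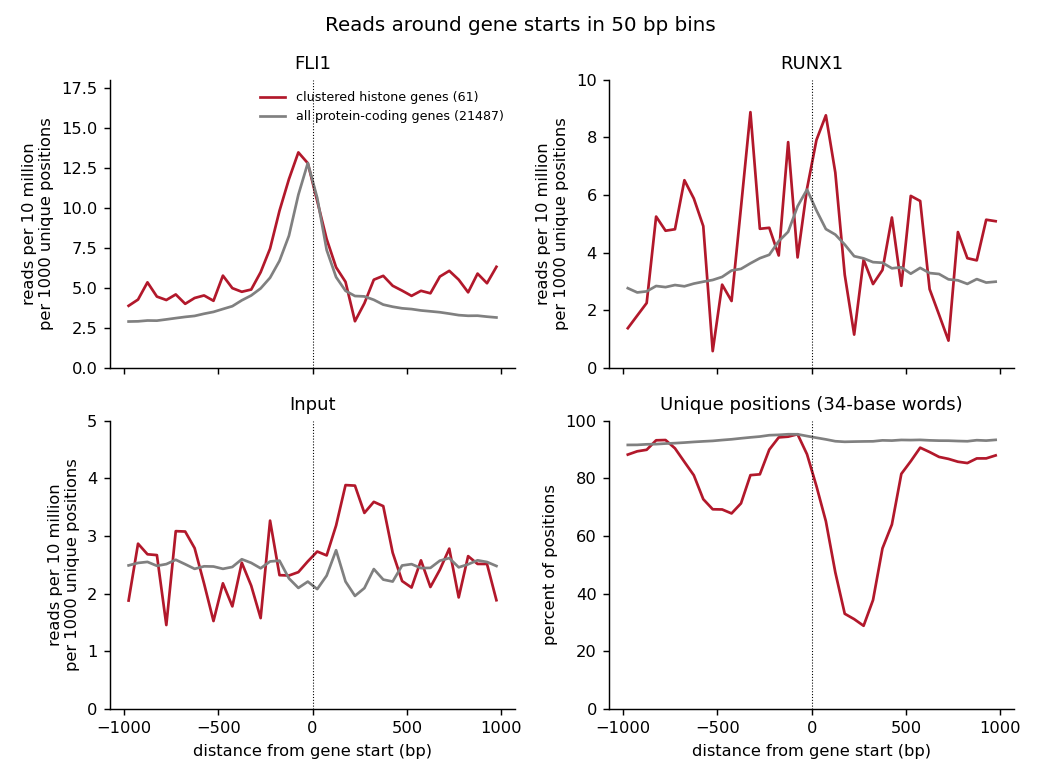
Scaled reads (per 10000000 reads) per 1000 unique positions of FLI1, RUNX1 and input, and the percent of positions with a unique 34-base word, in 50-bp bins by distance from the start, for 61 clustered histone genes (red) and 21487 protein-coding genes (grey). FLI1 has 1 maximum just upstream of the start in both groups (13.5 and 12.8), the RUNX1 line of the histone genes rests on 1 to 18 reads per bin, and unique positions of the histone genes are fewest after the start.

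The surroundings of the histone clusters were also above the input. From 1 to 5 kb from the histone starts, outside 1 kb of any protein-coding start, FLI1 over input was 1.26 (1.20 to 1.33) and RUNX1 over input 1.33 (1.19 to 1.47), compared with 0.979 and 0.960 at the same distance from all starts. The part of these flanks in the values at the starts, 3.11 for FLI1 and 2.09 for RUNX1, was not tested.

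Of the 37 H2A and H2B genes, 24 are arranged as divergent pairs of an H2A with an H2B gene and 13 are not. Of 13 pairs of histone genes with starts facing away from each other within 1 kb, 12 joined an H2A with an H2B gene and 1 joined Hist1h2bh with Hist1h3f. The starts of the 12 pairs lay 168 to 306 bp apart, with a median of 228.5 bp, so both genes share the DNA between them and most of their reads. Between the starts, 2 of the 12 pairs, both inverted copies, held 0 reads, and the other 10 held 7 to 53 FLI1 reads, with a median of 26, and 0 to 5 input reads. The most were at Hist1h2ae and Hist1h2bg, with 53 FLI1 reads and 1 input read, and the fewest of the 10 at the testis pair Hist1h2ba and Hist1h2aa, with 7 FLI1 and 5 input reads over 306 bp. Reads between these starts cannot be assigned to either gene.

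RUNX1 was sampled thinly, with a median of 2 reads per histone start. The deposited RUNX1 file holds far fewer reads than the study lists for this library, so the thin sampling is that of the file. Of the 61 genes with input, 5 held 0 RUNX1 reads, 37 held 1 to 3 and 19 held 4 or more. The most were at Hist1h4d (10 reads), Hist1h3e (8) and Hist4h4 (8), and the latter had 24 input reads. By the same formula, a RUNX1 fold of at least 2 was found at 29 of 61 histone genes (47.5%), beside 33.9% of all starts. A count of 0 RUNX1 reads allows up to 7.55 scaled reads, so the calls of single genes are coarse. Added over the 67 starts, 178 RUNX1 reads gave a ratio over input of 2.09 (1.75 to 2.49), beside 1.82 (1.80 to 1.84) over all starts, intervals that overlap. FLI1 over RUNX1, scaled by depth, was 1.48 (1.28 to 1.73) at the histone genes and 1.42 (1.41 to 1.43) at all starts. By class it was 1.34 (0.868 to 2.19) for H1, 1.37 (1.01 to 1.90) for H2A, 1.52 (1.10 to 2.13) for H2B and 1.09 (0.780 to 1.56) for H3. For H4 it was 2.06 (1.49 to 2.94), from 37 RUNX1 reads, and its interval lies above the value of all starts, while those of the other classes hold it.

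Of the ETS sequences searched, CCGGAA was less frequent at the histone genes than in all promoters, and CGGAAG, counted by gene, was about as frequent. In the 250 bp upstream, searched on both strands, CCGGAA was found at 2 of 67 histone genes (2.99%, exact 95% interval 0.364% to 10.4%), Hist1h4h and Hist1h1e, and in 13.9% of all protein-coding promoters. CGGAAG, which shares 5 bases with it and was added after the data were seen, was found at 9 (13.4%, 6.33% to 24.0%) and in 15.9% of all. Of these 9 genes, 4 are inverted copies without input reads, and 3 of the other 5 had a FLI1 fold of at least 2. Those 4 genes hold a single site, shared by the divergent Hist1h2bq and Hist1h2ao, and its identical copy at Hist1h2br and Hist1h2ap. Among all starts, 77.0% of those with CCGGAA and 34.4% of those without reached a fold of 2, and 38 of the 59 histone genes without it did (64.4%). At Hist1h4i, CGGAAG lies, on the strand opposite to the gene, 85 to 80 bp before the start, inside its fullest FLI1 window, and at Hist1h3e it lies 114 to 109 bp before the start, inside a window centred at 100 bp with 39 reads. It is also inside the fullest windows of Hist1h1e and of Hist1h2bm, whose fold was 1.25, and outside that of Hist1h4f, where it lies 154 to 149 bp before the start and the window is centred at 90 bp. A match is not a binding site, and other ETS sequences were not searched.

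The RUNX sequences were found at histone genes at shares whose intervals hold those of all promoters. TGTGGT was present upstream of 5 histone genes (7.46%, 2.47% to 16.6%) and in 12.8% of all promoters, and TGCGGT at 5 (7.46%, 2.47% to 16.6%) and in 5.63% of all. AGATAA, a sequence bound by GATA factors, was present at 11 histone genes (16.4%, 8.49% to 27.5%), with 6 of these 11 among the H3 genes. It was in 9.33% of all, which the interval of the whole group holds. By class, it was at 6 of the 11 H3 genes (54.5%, 23.4% to 83.3%), an interval above the share of all. The intervals of H1, H2A, H2B and H4 hold that share. In the 500 bp upstream it was at 7 of the 11 H3 genes (63.6%, 30.8% to 89.1%) and in 20.0% of all.

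Sequences known from histone promoters were frequent instead, and differed by class. CCAAT, bound by the NF-Y complex, was present upstream of 57 of 67 histone genes (85.1%, 74.3% to 92.6%) and in 35.0% of all promoters, at every H1, H2A and H2B gene, at 10 of 11 H3 genes and at 4 of 13 H4 genes. TATAA was present at 45 (67.2%) and in 21.8% of all. The octamer ATTTGCAT, known to be bound by the POU factor encoded by Pou2f1, was present at 15 (22.4%) and in 1.62% of all, at 7 H2A and 8 H2B genes and at no gene of the other classes. The 15 genes hold fewer sites, since divergent genes such as Hist1h2ae and Hist1h2bg share a single octamer. For every sequence searched, DNA between divergent starts can count for both genes. The exact intervals nevertheless treat the genes as separate. The H1 box AAACACA was present at 5 of 6 H1 genes, 9 histone genes in all (13.4%, 6.33% to 24.0%), and in 5.67% of all promoters. In the 500 bp upstream it was at 16.4% of histone genes (8.49% to 27.5%) and in 13.2% of all, which that interval holds.

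The 250 bp upstream had a median GC content of 44.4% and a median CpG ratio (observed over expected) of 0.718, compared with 54.0% and 0.496 over all genes. Of all starts with input reads, 69.1% of those with a CpG ratio of at least 0.6 and 18.9% of those below it had a FLI1 fold of at least 2. For the histone genes the shares were alike on both sides of this limit, 25 of 38 (65.8%) at or above it and 15 of 23 (65.2%) below it. The 65.2% stands beside 18.9% of all starts in the same range of CpG ratios.

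A further list holds factors of histone message production and processing, histone chaperones and cell-cycle genes. A FLI1 fold of at least 2 was found at 26 of the 29 genes found in the annotation, of 30 symbols listed (89.7%, beside 40.5% of all starts). Among them were Npat, the coactivator of the histone clusters (219 FLI1 and 20 input reads, fold 3.51), Slbp, the stem-loop binding protein (127 and 18 reads, fold 2.28), Casp8ap2, a histone locus body component (259 and 16 reads, fold 5.04), and Hinfp, an activator of H4 genes (215 and 10 reads, fold 6.28). The highest were Nfya, a subunit of NF-Y (328 and 6 reads, fold 14.1), and Cpsf3, the nuclease that cuts the histone message (286 and 8 reads, fold 9.92). The 26 also include the chaperones Asf1a, Asf1b, Chaf1a, Chaf1b and Hira (folds 3.31, 3.79, 4.87, 4.67 and 9.31). They further include the cell-cycle genes Cdk2, Ccne1 and Ccne2 (folds 7.38, 2.57 and 2.37). The 3 below 2 were Nfyc, another subunit of NF-Y (25 and 15 reads, fold 0.63), Zfp473, a factor of histone message processing (10 and 4 reads, fold 0.91), and Pou2af1, a lymphoid partner of octamer-binding factors (27 and 9 reads, fold 1.029). Apart from Nfya and Cpsf3, the genes of this list were named here after their values were seen. The listed genes are largely genes used in every dividing cell, and their promoters were not matched to those of the histone genes.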

How the data were processed

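Alignment by the authors was to build mm9, using Bowtie. What they deposited is the chromosome, start, end and strand of reads that map to 1 place, without duplicates by the methods. These deposited positions carry no signal or normalization, and all counts given here were made from them. Versions of Bowtie were not given in the sources used here. No position and strand repeats in the deposited ChIP files, whereas 3.24% of input reads repeat one, and these were reduced to 1 per position and strand. Mitochondrial reads were left out. Each read was moved 75 bp towards its 3′ end, for the fragment length of 150 bp in the methods. MACS 1.4 and SICER 1.1, which the submitters' processing notes name, were not used here.

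Counting used Python 3.11.15 and numpy 2.4.6, and was tested on simulated reads. Ratios have exact conditional binomial and shares exact (Clopper-Pearson) 95% intervals (scipy 1.17.1). Unique words are those occurring once, on both strands, in 22 chromosomes of mm9. The histone genes and the gene lists were chosen with earlier results of these data known. The rule for named genes was, in each class, the 2 highest and 2 lowest FLI1 folds among genes with at least 5 input reads, every gene without input reads, the 3 with most RUNX1 reads, all genes outside chromosome 13, and the 2 highest of each list. Alternatives changed the pseudocount (0.5 and 3), the window (250 and 1000 bp), the read position, repeated input positions, the scaling, the filter on input, the fold limit and the counting of shared reads. Counts per unique position, centring on the first coding base, the flanks and the sequence CGGAAG were added after seeing the data. NF-E2 and H3K4me2 libraries were not analysed here.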

Additional observations from a re-analysis of the deposited data

How the results depend on the processing

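The count of histone genes with a FLI1 fold of at least 2 (40) stayed between 24 and 54 over 14 alternatives. It was 24 at a fold limit of 3, where 27.6% of all starts passed, and 54 at 1.5, where 51.1% did. Where the alternative also moved the share of all starts, that share was 42.6% and 34.1% at pseudocounts of 0.5 and 3, 41.9% and 34.5% in windows of 250 and 1000 bp, 38.4% with at least 5 input reads and 39.3% without a filter on the input. With at least 5 input reads, 28 of the 48 histone genes left (58.3%) had a fold of at least 2. The summed FLI1 ratio was 3.73 within 250 bp and 2.56 within 1000 bp, that of H1 9.09 and 2.78, and that of H4 2.97 within 1000 bp. The upstream to downstream ratio of the input was 1.51 within 250 bp and 0.778 per unique position, which turned its direction, as the division by fewer unique positions downstream makes it. Hist2h3c1 fell to a fold of 0.769 within 250 bp, and Hist2h2aa1, Hist2h2ab, Hist1h4i and Hist1h4d moved beyond their counting intervals with the window. Lymphoid markers gave 1 called gene within 250 bp, and erythroid markers 1 and granulocyte and macrophage markers 2 at a fold limit of 1.5. TGTGGT was in the 500 bp upstream of 19.4% of histone genes and of 25.6% of all. The other 155 of 175 alternative values of group results and 210 of 215 of single genes kept their direction and stayed within their limits. For single genes the limits were the wide counting intervals of the ratio, and the direction was the side of 1. Values within them could still cross a fold of 2, as at Hist1h1a, with 4.38 within 250 bp and 1.62 within 1000 bp. The cause of these moves was not tested. No paired analysis was possible because each antibody has 1 library. The depth of the input, a median of 6 reads per histone start, limits single genes, and that of RUNX1 limits all but sums. The 6 inverted copies cannot be measured with unique reads.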

Other observations

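The listed histone genes outside the clusters, which encode histone variants and linker histones, were a mixed group. A FLI1 fold of at least 2 was found at 6 of the 14 found in the annotation, of 16 listed (42.9%, beside 40.5% of all starts). The 6 were Cenpa, the histone H3 variant of centromeres (177 FLI1 and 7 input reads, fold 6.90), H2afz, the H2A.Z gene (113 and 4 reads, fold 6.67), H2afv, its close relative (119 and 6 reads, fold 5.29), H2afx, the H2A variant phosphorylated at DNA breaks (94 and 5 reads, fold 4.83), H3f3a, a gene for H3.3 (68 and 4 reads, fold 4.16), and H2afj (66 and 9 reads, fold 2.23). H3f3b, the other gene for H3.3, had 24 FLI1 and 6 input reads and a fold of 1.28. The germline variants H1foo, H1fnt, Hils1 and H2afb1 had folds of 0.86, 1.06, 0.90 and 0.62. H2afv, H2afx, H3f3a, H2afj, H3f3b and the germline variants were named after their values were seen. H2afv held 12 RUNX1 reads, more than any clustered histone gene.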
